A study of Mus musculus with 10 samples.

Results

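Second 2i was compared with first 2i, that is, mouse embryonic stem cells that had been in 2i medium for a similar number of passages but reached it by different routes. First 2i cells had been moved from serum with LIF (leukaemia inhibitory factor) to 2i with LIF and kept there for 5 to 6 passages. Second 2i cells had already spent 13 passages in 2i and 6 passages in serum with LIF before 4 to 5 further passages in 2i. The labels give no total number of passages. Earlier 2i culture, the serum passages after it and longer culture as such therefore cannot be told apart. Each group has 2 libraries, chosen by the culture history in the labels, so the comparison uses 4 of the 10 RNA-seq libraries of the series. The other 6 libraries, also in pairs, are the original serum culture, 2i for more than 13 passages (long 2i), and more than 13 passages in 2i followed by 6 in serum (serum return). All cells carried a reporter of the Wnt/β-catenin pathway, came from the inner cell mass of the blastocyst and were grown on gelatin-coated plates with a split every 48 h. 2i contained a GSK3 inhibitor at 3 µM and an inhibitor of the ERK pathway at 1 µM. For second 2i the labels state 13 passages of earlier 2i, not more than 13, and do not say that the cells came from the serum return that was sequenced. The labels do not state whether paired libraries stem from separate cultures, and each p-value therefore refers to library-to-library spread, which may be technical.

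GSK3 phosphorylates β-catenin and marks it for destruction, so its inhibition lets β-catenin build up and act with Tcf/Lef factors on Wnt target genes. The ERK pathway carries the Fgf4 signal that pushes embryonic stem cells towards differentiation, and its targets include feedback inhibitors such as the Sprouty proteins. Cells in 2i are known for an even expression of naive pluripotency factors and for low DNA methylation, with low levels of the de novo methylation machinery. Serum with LIF leaves ERK signalling active and keeps the cells in a more mixed state.

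Gene counts totalled 21261219 and 20397075 in first 2i and 18412529 and 19017245 in second 2i, and levels are given as CPM, gene counts scaled to a common library size with a TMM factor. The defining genes of embryonic stem cells were high in all 4 libraries. Pou5f1 was at 1052 and 1075 CPM in first 2i and 1311 and 1369.8 CPM in second 2i, Sox2 at 775 and 811 CPM in first 2i and 618 and 612 CPM in second 2i and Nanog at 1117 and 1119 CPM in first 2i and 1295 and 1289.8 CPM in second 2i. A count of 3 over both libraries of a group, used as the floor for a gene with no reads, corresponded to 0.0716 CPM in first 2i and 0.0804 CPM in second 2i and covers counting error only. Records outside annotated features made up 11.6 and 11.8% of all records in first 2i and 10.7 and 10.8% in second 2i. Whether this bears on any gene below was not tested.

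Second 2i differed from first 2i in many genes but mostly by small amounts. By edgeR's quasi-likelihood test, 5357 of 14220 genes passed a Benjamini-Hochberg adjusted p of 0.05 (37.7%), 2570 higher (18.1%) and 2787 lower (19.6%) in second 2i. The median absolute log2 fold change was 0.22 over all genes tested and 0.41 over those that passed, and 943 genes (6.63%) passed with at least a 2-fold difference, 447 higher and 496 lower. Without replicate 2 of second 2i, 3566 genes passed, 1671 of them higher. The root mean square difference in log2 CPM was 0.331 between the 2 libraries of first 2i and 0.333 between those of second 2i. Between the groups it was 0.582 to 0.606, smaller than the 0.865 to 0.876 between second 2i and long 2i and the 1.17 to 1.2 between second 2i and serum. Second 2i thus lay nearer to first 2i than to the other groups, with the 2 groups further from each other than replicates were. RNA from the whole culture was sequenced, so fewer cells of a type and less RNA per cell cannot be told apart in any of these differences.

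**Figure D1:**
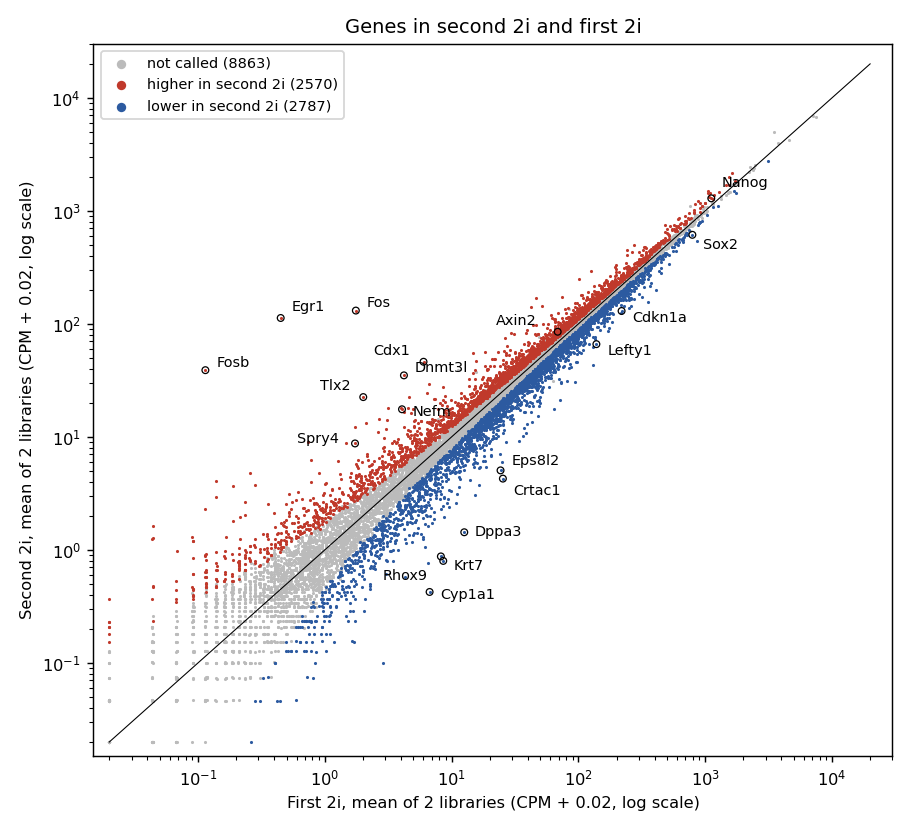
Mean level of each of the 14220 tested genes in first 2i (x axis) and second 2i (y axis), as CPM + 0.02 on log scales, with genes that passed an edgeR adjusted p of 0.05 in red (2570 higher in second 2i) or blue (2787 lower). Fosb, Egr1 and Fos stand far above the diagonal, and Cyp1a1, Krt7, Rhox9 and Dppa3 lie below it.

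Among genes of at least 5 CPM in second 2i, with predicted, ribosomal protein and histone genes left out, the 3 largest increases belonged to Fosb, Egr1 and Fos. They are transcription factors of the immediate-early class, which cells switch on within minutes of a growth signal. Fos was at 1.82 and 1.66 CPM in first 2i and 132 and 131 CPM in second 2i, a 75.1-fold difference (log2 fold change 6.23 ± 0.13 (SE), edgeR adjusted p = 3.12e-18). Egr1 rose from 0.421 and 0.438 CPM to 116 and 109.8 CPM, and Fosb from 0.14 and 0.0487 CPM to 39.5 and 38.4 CPM (adjusted p = 7.81e-20 and 2.54e-14). The second 2i libraries stood above every other library of the series for all 3 genes. For Egr1 the serum libraries were at 26.6 and 28.5 CPM and those of serum return at 28.4 and 27.7 CPM, while long 2i was at 2.78 and 2.96 CPM. For Fos the serum libraries were at 4.5 and 5.58 CPM, serum return at 6.96 and 5.72 CPM and long 2i at 2.78 and 3.69 CPM. Fosb, at 0.236 and 0.422 CPM in long 2i and 0.287 and 0.14 CPM in serum return, was below 0.5 CPM in every library outside second 2i.

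The upstream sequences of Fos and Fosb are shown because these genes are, with Egr1, whose sequence is not shown, the 3 with the largest increases, and because both hold TGACG, the core of the sites bound by Creb and Atf factors, which are known to act on Fos. The 250 bases before the RefSeq start are on build GRCm38.p6 at chr12:85473640-85473889 (plus strand) for Fos and at chr7:19310046-19310295 (minus strand) for Fosb, written 5′ to 3′ along the gene. Capitals mark TGACG, searched on both strands (CGTCA on the other).
Fos: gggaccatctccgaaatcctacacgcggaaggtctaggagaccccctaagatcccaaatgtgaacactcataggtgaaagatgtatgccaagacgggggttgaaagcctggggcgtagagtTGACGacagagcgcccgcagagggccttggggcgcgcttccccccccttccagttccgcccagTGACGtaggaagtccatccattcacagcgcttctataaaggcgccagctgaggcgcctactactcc
Fosb: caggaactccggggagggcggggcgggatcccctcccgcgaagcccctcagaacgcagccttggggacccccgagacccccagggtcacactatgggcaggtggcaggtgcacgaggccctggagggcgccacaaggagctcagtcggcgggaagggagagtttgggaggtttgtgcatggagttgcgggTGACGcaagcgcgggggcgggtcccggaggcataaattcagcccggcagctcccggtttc
The matches begin 129 and 66 bases before the start of Fos and 60 bases before that of Fosb. TGACG or CGTCA occurred in this window in 19.79% of 27025 genes with a RefSeq promoter, and in 10 of the 19 tested immediate-early genes that had one. The immediate-early list was drawn up after its leading genes had been seen. A match is a string of letters and no evidence of binding.

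Of 25 tested genes in an immediate-early list of 30, 14 were higher and 4 lower in second 2i, against 18.1% and 19.6% of all genes, and the median log2 fold change was 0.70 against 0.00 over all genes. This list was drawn up after Fos, Fosb and Egr1 had been seen, and Fosb passed the filter on low counts only through second 2i. The matricellular genes Cyr61 and Ctgf rose 3.23-fold and 2.26-fold, Cyr61 from 8.84 and 8.28 CPM to 28.4 and 26.9 CPM. Atf3, a stress-induced factor, rose 2.98-fold and Gadd45b, a growth arrest gene, 2.15-fold. Jun, the partner of Fos in AP-1, rose from 3.6 and 4.53 CPM to 8.17 and 7.86 CPM (1.97-fold), and Ier2 and Junb rose 1.62-fold and 1.78-fold. The members that fell were Btg2 (1.55-fold), Nr4a1, Klf6 and Arc, and leaving out any single library of first or second 2i left 2 members lower. The calls of Nr4a1 and Arc were each lost in 3 of these 4 cases and that of Klf6 in 2, with edgeR adjusted p values of up to 0.121, 0.169 and 0.203. Klf10 (247 and 242 CPM in first 2i and 232 and 227 CPM in second 2i) did not pass. In 15 SRF and YAP target genes, a list that shares Cyr61, Ctgf and Srf with the one above, 7 were higher and 3 lower. Actb rose from 1019.9 and 1105 CPM to 1455 and 1540.1 CPM.

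ERK feedback and target genes were higher in second 2i in 12 of 19 tested members and lower in none, and the other 7 did not pass (median log2 fold change 0.70). Among all genes, 18.1% were higher and 19.6% lower. Egr1 and Fos, described above, are among the 12. Spry4, a Sprouty inhibitor of the pathway, was at 1.92 and 1.51 CPM in first 2i and 9.1 and 8.38 CPM in second 2i, a 5.07-fold difference (log2 fold change 2.34 ± 0.14 (SE), edgeR adjusted p = 1.24e-10). Etv4, a factor of the PEA3 family that ERK induces, rose from 4.49 and 4.72 CPM to 22.4 and 22.3 CPM (4.85-fold), and its relative Etv1 from 7.58 and 6.92 CPM to 21.6 and 21.6 CPM (2.98-fold). Myc, the growth-promoting transcription factor, rose 2.41-fold and Ccnd1, the cyclin of early G1, 2.23-fold. Even so Spry4 stayed far below its serum level of 406 and 408 CPM, Etv4 below 277 and 288 CPM and Myc below 90.2 and 97.4 CPM. Long 2i was at 20.3 and 19.06 CPM for Spry4, 135 and 141 CPM for Etv4 and 105 and 113 CPM for Ccnd1, which placed second 2i between first 2i and long 2i for these 3 genes. Dusp6, a phosphatase that acts on ERK itself, was at 19.2 and 15.7 CPM in first 2i and 19.9 and 18.7 CPM in second 2i and did not pass (adjusted p = 0.212), nor did Spry1, Spred1, Spred2 or Dusp5. Without replicate 1 of first 2i, Dusp6 and Spry1 passed (adjusted p = 0.0311 and 0.0291).

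Wnt feedback and direct target genes were higher in 7 of 20 tested members and lower in 2 (median log2 fold change 0.34). The shares over all genes were 18.1% and 19.6%. Axin2, the feedback inhibitor that β-catenin switches on in most cells, was at 66.9 and 70.5 CPM in first 2i and 85.3 and 85.3 CPM in second 2i (1.24-fold higher, log2 fold change 0.31 ± 0.07 (SE), edgeR adjusted p = 8.93e-04). Sp5, a Wnt-induced repressor, was at 12 and 17.2 CPM in first 2i and 21.3 and 27.6 CPM in second 2i (1.68-fold, adjusted p = 0.0215), and did not pass without replicate 1 of first 2i (0.0772) or replicate 2 of second 2i (0.118). In long 2i Axin2 was at 73 and 75.2 CPM and Sp5 at 20.5 and 29.7 CPM, and in serum they were at 2.34 and 3.02 CPM and 0.0957 and 0.104 CPM. The gene of the secreted Wnt antagonist Notum fell from 118 and 126 CPM to 92.1 and 102 CPM (1.26-fold) and the ligand gene Wnt3 from 0.748 and 1.27 CPM to 0.163 and 0.158 CPM. Tcf7, a partner of β-catenin, was at 68.7 and 68.5 CPM in first 2i and 70.6 and 65.2 CPM in second 2i and did not pass, and Tcf7l1, the repressive member of its family, rose 1.29-fold.

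Cdx1, a caudal homeobox gene and direct Wnt target that sets posterior identity, was at 5.71 and 6.28 CPM in first 2i and 41.2 and 51.3 CPM in second 2i, a 7.72-fold difference (log2 fold change 2.95 ± 0.15 (SE), edgeR adjusted p = 2.15e-10), and the second 2i libraries were above those of long 2i (10.1 and 13.8 CPM), serum (1.77 and 2.24 CPM) and serum return (4.99 and 6.37 CPM). Its relative Cdx2, also a trophectoderm factor, had 1 read in first 2i and 47 in second 2i (1.09 and 1.42 CPM, adjusted p = 2.47e-05), so no fold is given. Of 39 listed Hox genes, which pattern the body axis, 17 were tested. Of these 6 were higher and 1 lower, against 18.1% and 19.6% of all genes. Members with few reads passed the filter through the groups in which they were high, so the count describes those 17 only. Hoxa3 rose from 0.234 and 0.292 CPM to 1.2 and 1.27 CPM (4.61-fold). Hoxc12 fell from 2.71 and 2.43 CPM to 1.47 and 1.53 CPM but did not pass in DESeq2 (adjusted p = 0.158) or without any single library (edgeR, 0.0672 to 0.148). Hoxd13 and Hoxd9, at 0.763 and 1.48 CPM and 0.926 and 1.37 CPM in second 2i, lost their calls in DESeq2 (adjusted p = 0.0576 and 0.114) and without replicate 2 of second 2i (edgeR adjusted p = 0.216 and 0.184), Hoxd13 also without replicate 1 of first 2i (0.0567) and Hoxd9 without replicate 2 of first 2i (0.155). Tlx2, a homeobox gene known as a BMP target, rose from 1.36 and 2.63 CPM to 19.3 and 25.7 CPM (11.3-fold). In the primitive streak and mesoderm list 3 of 12 tested genes were higher and 2 lower, a share of calls close to that of all genes. T (Brachyury), the defining streak factor, was at 1.45 and 1.17 CPM in first 2i and 2.34 and 1.79 CPM in second 2i and did not pass (adjusted p = 0.0801).

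The methylation machinery changed in both directions. Dnmt3l, the cofactor that stimulates the de novo methyltransferases, was at 4.44 and 3.94 CPM in first 2i and 33.5 and 36.6 CPM in second 2i, an 8.34-fold difference (log2 fold change 3.06 ± 0.09 (SE), edgeR adjusted p = 4.65e-15). Dnmt3b, one of the de novo enzymes, rose 2.03-fold from 30.1 and 27.2 CPM to 58.6 and 58 CPM, whereas Dnmt3a, the other, fell 1.38-fold to 16.4 and 17.7 CPM. The groups did not overlap for any of the 3 genes, as was the case with second 2i higher for 34.4% of all genes tested and with it lower for 34.6%. Long 2i stood above second 2i for Dnmt3l (83 and 84.2 CPM) and Dnmt3b (174 and 184 CPM), and serum higher still for Dnmt3l (371 and 369 CPM). Uhrf1, which brings the maintenance enzyme to newly copied DNA, rose 1.39-fold to 721 and 739.9 CPM, and Dnmt1, the maintenance enzyme, was at 507 and 533 CPM in first 2i and 505 and 516 CPM in second 2i and did not pass. Tet2, a dioxygenase that oxidises methylcytosine, rose from 120.1 and 132 CPM to 284 and 300.1 CPM (2.32-fold), to about its serum level of 272 and 297 CPM, whereas Tet1 was at 341 and 321 CPM in first 2i and 351 and 332 CPM in second 2i and passed only with GC-dependent offsets (adjusted p = 0.00346). Dppa3, also in the list of methylation enzymes and cofactors, fell 8.83-fold from 12.2 and 13 CPM to 1.09 and 1.74 CPM (log2 fold change -3.14 ± 0.22 (SE), edgeR adjusted p = 1.10e-09). Its serum libraries were at 1.15 and 0.677 CPM and its long 2i libraries at 18.9 and 18.2 CPM, so second 2i was near serum for Dppa3 and first 2i near long 2i. Over the list of 17 tested genes 7 were higher and 3 lower, against 18.1% and 19.6% of all genes. Zfp57 and Trim28, which guard imprinted regions and silence retroelements, rose 1.4-fold and 1.31-fold.

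**Figure D2:**
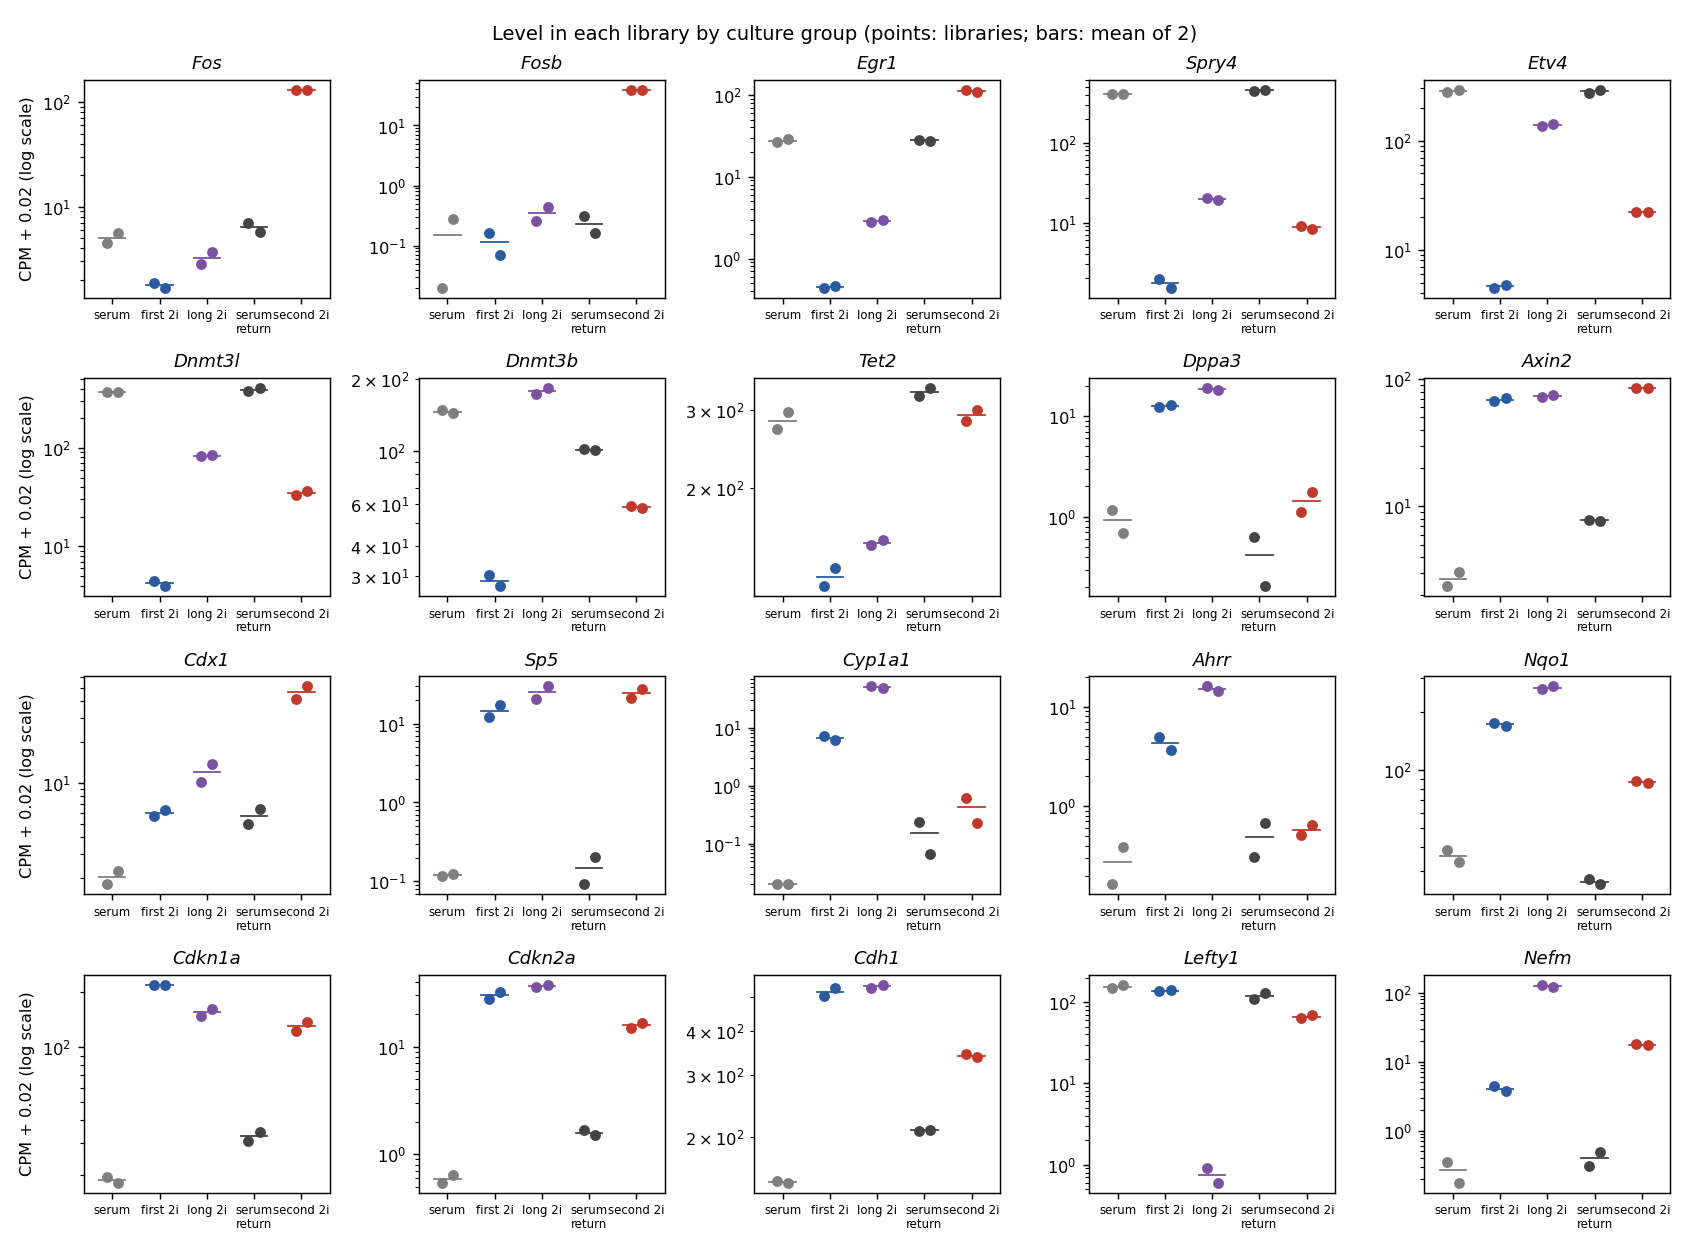
Level of 20 genes in each of the 10 libraries, as CPM + 0.02 on log scales that differ between panels, with points for libraries and bars for the mean of 2. Fos, Fosb and Egr1 are highest in second 2i, Dnmt3l, Spry4 and Etv4 lie between first 2i and serum there, and Dppa3 and Cyp1a1 are near their serum levels.

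Germline genes whose promoters are known to be methylated moved in both directions, 8 of 30 higher and 9 lower (median log2 fold change -0.15). These are 26.7% and 30%, against 18.1% and 19.6% of all genes. Rhox9 and Rhox6, X-linked homeobox genes of the germ line, fell 9.53-fold and 4.47-fold, Rhox9 from 8.7 and 7.74 CPM to 0.817 and 0.896 CPM. Brdt, a bromodomain protein of spermatocytes, rose 5.43-fold from 3.04 and 2.29 CPM to 14.4 and 14.7 CPM, and the testis tubulin Tuba3a 4.45-fold from 6.32 and 7.01 CPM to 31.1 and 28.2 CPM. For Brdt second 2i was above every other group, with serum return next at 8.54 and 7.96 CPM. Taf7l, a testis form of a general transcription factor, fell from 1.87 and 2.0 CPM to 0.327 and 0.58 CPM. The Rhox and Tuba3 genes have close copies in the genome, and their values are uncertain.

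Genes of the 2-cell-like state, a rare and transient state in stem cell cultures that resembles the cleavage embryo, were higher in 9 of 10 tested members and lower in none (median log2 fold change 3.39). Zscan4d, which marks the state, was at 0.327 and 0.195 CPM in first 2i and 4.09 and 3.32 CPM in second 2i (log2 fold change 3.79 ± 0.39 (SE), edgeR adjusted p = 3.60e-07), and Usp17lb at 0.187 and 0.0487 CPM in first 2i and 2.62 and 3.22 CPM in second 2i (23.3-fold). No long 2i library had a read of Zscan4d. The 10th member, Eif1a, was at 344 and 311 CPM in first 2i and 345 and 306 CPM in second 2i and passed only with GC-dependent offsets (adjusted p = 0.00763). Zscan4 and Usp17l genes have near-identical copies, and reads aligned to more than 1 place were not counted, so these levels are uncertain and the members are not independent of each other. Since members passed the filter on low counts through the groups in which they were high, the count describes those 10 of 21 listed genes only.

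Of the tested imprinted genes, 3 of 19 maternally expressed ones were higher and 5 lower, and 2 of 24 paternally expressed ones were higher and 5 lower. Over all genes tested, 18.1% were higher and 19.6% lower. Meg3 and Rian, noncoding RNAs of the Dlk1-Dio3 domain, fell 1.55-fold and 1.43-fold, Meg3 from 155 and 162 CPM to 100.4 and 104 CPM. Dio3, at the other end of that domain, was at 14.1 and 11.6 CPM in first 2i and 18.6 and 21.4 CPM in second 2i (1.55-fold higher), against 0.591 and 0.95 CPM in long 2i and 0.143 and 0.156 CPM in serum. Grb10, an inhibitor of growth factor receptors, rose 1.72-fold, and Slc22a18, a transporter, fell from 1.08 and 1.07 CPM to 0.109 and 0.211 CPM. H19 was at 1 read in first 2i and 6 in second 2i and did not pass (adjusted p = 0.127).

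Pluripotency genes changed in both directions, with small differences in the central factors and larger ones in Dppa3, given above, Gbx2 and Dppa2. Pou5f1, the central factor of the pluripotent state, was 1.26-fold higher in second 2i (adjusted p = 1.64e-05), Nanog 1.16-fold higher and Sox2 1.29-fold lower. Of 14 tested core factors 7 were higher and 4 lower, and of 16 naive factors 7 were higher and 3 lower, with medians of 0.12 in both lists. These counts, and that of the formative and primed list below, stand beside 18.1% of all genes higher and 19.6% lower. Dppa2, an activator of early embryonic genes, rose 2.21-fold to 48.3 and 49.6 CPM, and Utf1 fell 1.67-fold. Gbx2, a naive-state homeobox gene, rose 3.97-fold from 4.26 and 4.09 CPM to 16.5 and 16.7 CPM, and Nr0b1 (Dax1) 1.69-fold. Klf4 and Tbx3 rose 1.21-fold and 1.23-fold. Tfcp2l1, a naive factor downstream of LIF and Wnt, was at 2408 and 2337 CPM in first 2i and 2336 and 2284 CPM in second 2i and did not pass. The small increase of Esrrb (1.12-fold, adjusted p = 0.0115) did not pass without replicate 1 of first 2i (adjusted p = 0.114) or without replicate 2 of second 2i (0.131). Klf2 was at 178 and 242 CPM in first 2i and 208 and 259 CPM in second 2i and did not pass. It passed with no filter on low counts (adjusted p = 0.0194), and its log2 fold change was -0.048 without replicate 1 of first 2i. Otx2, which opens the way to the primed epiblast, fell 3.09-fold from 48.3 and 47 CPM to 15.4 and 15.5 CPM (log2 fold change -1.63 ± 0.08 (SE), edgeR adjusted p = 9.97e-12), and in the formative and primed list 5 of 18 tested genes were higher and 3 lower.

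Nodal signalling genes moved in both directions, and their counts stand beside 18.1% of all genes higher and 19.6% lower. Lefty1 and Lefty2, secreted antagonists of Nodal that Nodal itself induces, fell 2.09-fold and 1.59-fold, Lefty1 from 138 and 139.5 CPM to 63.5 and 69 CPM. In long 2i Lefty1 was at 0.887 and 0.581 CPM, so second 2i lay between first 2i and long 2i. Nodal itself was at 92.2 and 93.1 CPM in first 2i and 104 and 110.4 CPM in second 2i, 1.16-fold higher, and did not pass without replicate 1 of first 2i (adjusted p = 0.0515) or replicate 2 of second 2i (0.108). Of 11 tested members 3 were higher and 3 lower, and without replicate 2 of second 2i a single member was higher. BMP targets were higher in 3 of 8 tested members and lower in 1. Id3 and Id1, inhibitors of differentiation factors, rose 2.06-fold and 1.68-fold, Id3 from 19.09 and 19.3 CPM to 36 and 43.1 CPM, while Id4 fell 1.72-fold. Msx2, a homeobox target of BMP, had 1 read in first 2i and 60 in second 2i (1.58 and 1.63 CPM). It passed the filter on low counts only through second 2i, so its call is not independent of that filter. The count of BMP targets describes those 8 of 9 listed genes only.

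p53 target genes were lower in 13 of 21 tested members and higher in 3 (median log2 fold change -0.56), and without replicate 2 of second 2i 1 member was higher. Among all genes, 19.6% were lower and 18.1% higher. Cdkn1a (p21), the cell-cycle inhibitor that p53 is best known for, was at 219 and 219.8 CPM in first 2i and 123 and 138 CPM in second 2i, a 1.68-fold decrease (log2 fold change -0.75 ± 0.06 (SE), edgeR adjusted p = 1.53e-08). Ccng1, a feedback cyclin of p53, fell 1.7-fold, Zmat3 1.68-fold and Mdm2, the ligase that destroys p53, 1.27-fold. The proapoptotic genes Pmaip1 (Noxa) and Bbc3 (Puma) fell 2.14-fold and 1.99-fold, while Bax, also proapoptotic, rose 1.23-fold but did not pass with GC-dependent offsets (adjusted p = 0.198) or without replicate 1 of first 2i (0.0622) or replicate 2 of second 2i (0.0839). Cdkn1a remained well above serum (19.3 and 18.1 CPM) in second 2i. Cdkn2a, which encodes the p16 and Arf inhibitors, fell 1.89-fold from 27.6 and 32 CPM to 14.9 and 16.6 CPM, against 35.6 and 37.5 CPM in long 2i and 0.526 and 0.625 CPM in serum. Mycn fell 1.86-fold to 58.4 and 58.4 CPM while Myc rose, as given above. Of 12 tested cell-cycle inhibitors and D cyclins 3 were higher and 4 lower, against 18.1% and 19.6% of all genes.

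The aryl hydrocarbon receptor and its targets were lower in 5 of 8 tested members and higher in 1 (median log2 fold change -1.05). The shares over all genes were 19.6% lower and 18.1% higher. The receptor senses xenobiotics and tryptophan products and, with Arnt, binds GCGTG. Cyp1a1, the cytochrome P450 taken as its standard readout, was at 7.16 and 6.23 CPM in first 2i and 0.599 and 0.211 CPM in second 2i, a 16.4-fold decrease (log2 fold change -4.04 ± 0.29 (SE), edgeR adjusted p = 3.08e-09), and at 51.5 and 48.4 CPM in long 2i. The receptor gene Ahr fell 2.15-fold from 12.5 and 14.5 CPM to 6.76 and 5.8 CPM, its repressor Ahrr 7.55-fold from 4.91 and 3.65 CPM to 0.49 and 0.633 CPM, and the quinone reductase Nqo1 1.98-fold from 175 and 169 CPM to 88.1 and 85.2 CPM. No serum library had a read of Cyp1a1, and second 2i was nearer to serum than to first 2i for Cyp1a1 and Ahrr. Tiparp, another target, rose 1.27-fold, and Arnt was at 160.3 and 159 CPM in first 2i and 154 and 152 CPM in second 2i and did not pass. Cyp1b1, at 2.11 and 1.12 CPM in first 2i and 0.272 and 0 CPM in second 2i, passed (adjusted p = 0.0316) but not in DESeq2 (0.147), without replicate 1 of first 2i (edgeR, 0.140) or without replicate 2 of second 2i (0.144).

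The 250 bases before the RefSeq starts of Ahrr (chr13:74292332-74292581, minus strand), Cyp1a1 (chr9:57697363-57697612, plus strand) and Cyp1b1 (chr17:79715062-79715311, minus strand) on GRCm38.p6 are given because these genes fell and hold the letters the receptor binds. Capitals mark GCGTG or, on the other strand, CACGC.
Ahrr: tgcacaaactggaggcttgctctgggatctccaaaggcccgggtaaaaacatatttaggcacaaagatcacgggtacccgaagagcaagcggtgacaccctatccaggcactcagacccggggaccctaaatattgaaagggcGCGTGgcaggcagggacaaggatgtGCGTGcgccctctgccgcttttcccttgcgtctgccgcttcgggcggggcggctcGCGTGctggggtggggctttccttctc
Cyp1a1: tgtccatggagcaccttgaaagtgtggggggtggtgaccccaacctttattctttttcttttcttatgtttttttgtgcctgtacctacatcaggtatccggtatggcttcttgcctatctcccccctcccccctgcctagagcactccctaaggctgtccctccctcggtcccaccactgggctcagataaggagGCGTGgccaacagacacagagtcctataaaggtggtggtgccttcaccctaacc
Cyp1b1: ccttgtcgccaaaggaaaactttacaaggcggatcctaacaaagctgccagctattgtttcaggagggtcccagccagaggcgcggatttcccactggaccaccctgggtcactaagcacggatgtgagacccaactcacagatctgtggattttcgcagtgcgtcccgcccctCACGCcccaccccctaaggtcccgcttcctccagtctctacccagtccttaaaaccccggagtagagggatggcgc
Ahrr holds 3 matches, beginning 107, 82 and 27 bases before the start, Cyp1a1 holds 1 at 54 bases and Cyp1b1 1 at 76 bases. Either string occurred in this window in 30.85% of 27025 genes, and in 5 of the 6 tested list members that had a RefSeq promoter. The matches describe sequence and were not tied to binding or to the fall.

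Epithelial genes were lower in 9 of 18 tested members of the adhesion list and higher in 2 (median log2 fold change -0.54). Among all genes, 19.6% were lower and 18.1% higher. Cdh1, E-cadherin, which holds stem cell colonies together, fell 1.52-fold from 506 and 532 CPM to 344 and 337 CPM (log2 fold change -0.61 ± 0.05 (SE), edgeR adjusted p = 3.08e-09), still above the 149 and 148 CPM of serum. P-cadherin (Cdh3) fell 4.14-fold from 22.2 and 27.7 CPM to 5.29 and 6.75 CPM, the claudin Cldn7 4.42-fold, the polarity gene Crb3 3.4-fold and the desmosomal Pkp2 2.5-fold. Icam1, a cell adhesion molecule, rose 1.3-fold. Krt7, a keratin of simple epithelia and trophoblast, fell 11-fold from 8.89 and 8.28 CPM to 0.981 and 0.58 CPM and was at 0.177 and 0.106 CPM in long 2i, which left first 2i as its highest group. Pof1b and Eps8l2, both of the epithelial actin cytoskeleton, fell 5.82-fold and 4.82-fold. Mal, a membrane sorting protein, fell 4.36-fold, and Vim, the mesenchymal filament, fell 1.85-fold from 314 and 326 CPM to 168 and 177 CPM.

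**Figure D3:**
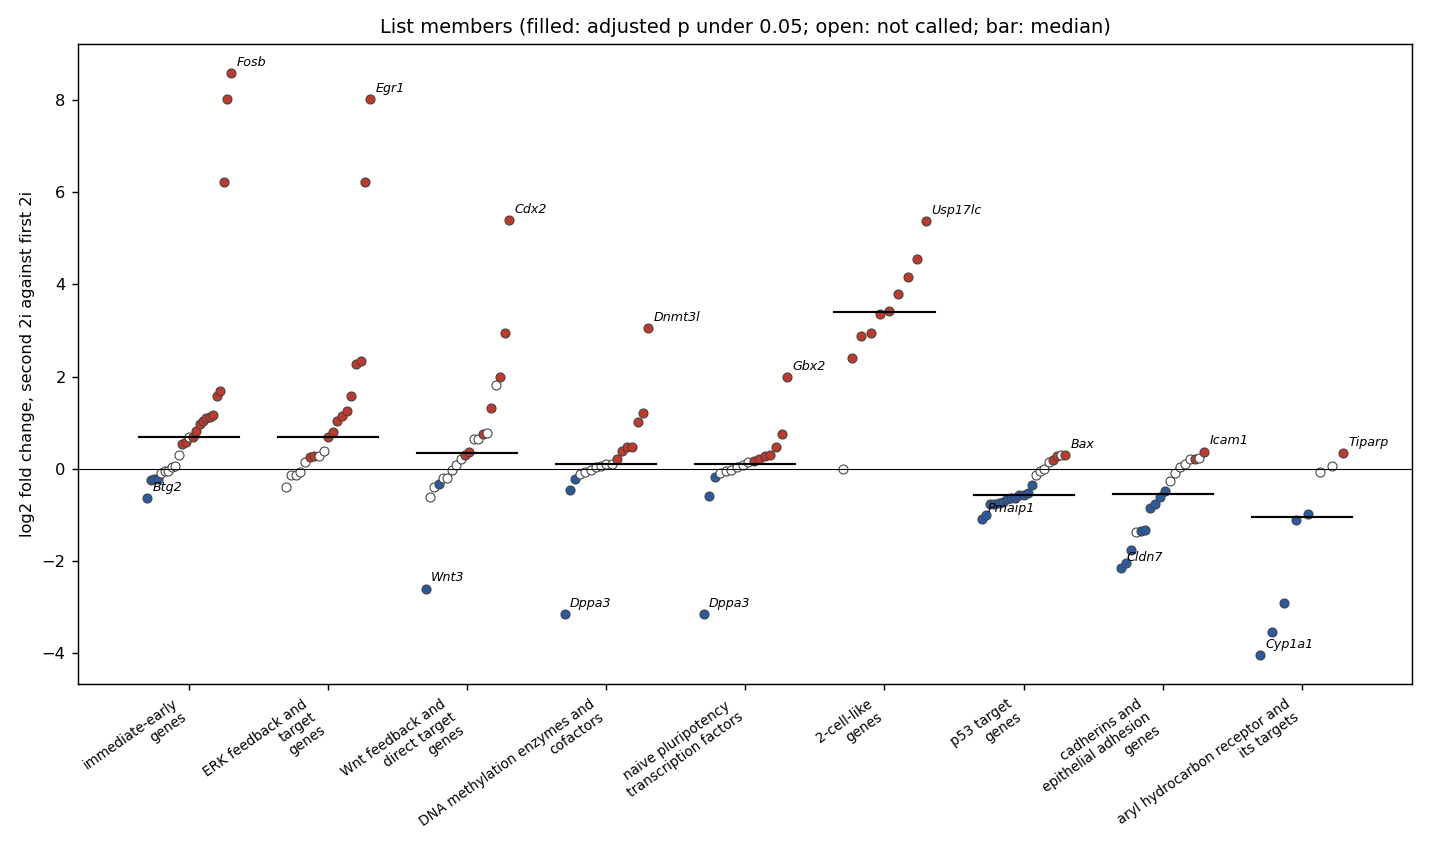
Log2 fold change of second 2i against first 2i for the tested members of 9 lists, filled where the edgeR adjusted p was under 0.05 and open where it was not, with a bar at each list's median. Members of the 2-cell-like, ERK and immediate-early lists lie mostly above 0, and those of the p53, adhesion and aryl hydrocarbon receptor lists mostly below. The immediate-early list was drawn up after its leading genes had been seen. Tested 2-cell-like genes passed the filter on low counts through the groups in which they were high. Values of genes with few reads, such as Cdx2 and Usp17lc, depend on the prior count.

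Neural genes were higher in 8 of 17 tested members and lower in 3 (median log2 fold change 0.31), and without replicate 2 of second 2i 5 were higher. Among all genes, 18.1% were higher and 19.6% lower. The neurofilament genes Nefm and Nefl, structural genes of axons, rose 4.32-fold and 1.65-fold, Nefm from 4.4 and 3.7 CPM to 17.9 and 17.2 CPM. Long 2i was higher still at 131 and 123 CPM, and serum was at 0.335 and 0.156 CPM. Gad2, an enzyme of GABA synthesis, fell 2.93-fold to 2.4 and 2.27 CPM, and the RNA-binding protein gene Elavl4 fell 3.71-fold. Calb2 (calretinin), a calcium-binding protein of neurons, fell 8.66-fold from 5.99 and 7.11 CPM to 0.599 and 0.896 CPM.

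Among the other genes of largest change, several belong to none of the lists. Arhgef26, a guanine nucleotide exchange factor, rose 7.16-fold from 1.87 and 1.56 CPM to 12.5 and 12.2 CPM (log2 fold change 2.84 ± 0.18 (SE), edgeR adjusted p = 1.92e-10), Slc43a3, a nucleobase transporter, 6.36-fold to 13.1 and 13.4 CPM, and Hal, the histidine-degrading enzyme, 4.88-fold to 5.23 and 6.91 CPM. Gpr124, a coreceptor for Wnt7 ligands, rose from 1.08 and 0.438 CPM to 6.37 and 6.06 CPM (8.09-fold). Crtac1, a secreted matrix protein of cartilage, fell 5.95-fold from 23.9 and 26.9 CPM to 4.2 and 4.32 CPM, and Myb, a transcription factor of blood progenitors, 5.04-fold from 15 and 15.8 CPM to 3.38 and 2.74 CPM. Gstm3, a glutathione transferase, fell 4.83-fold to 1.42 and 1.05 CPM. The libraries of the 2 groups did not overlap for any of these genes, which the choice by non-overlap fixed.

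Of 27 tested glycolysis and hypoxia-responsive genes 14 were higher and 6 lower (median log2 fold change 0.24). This count and those of the lists below stand beside 18.1% of all genes higher and 19.6% lower. Slc16a3, a lactate exporter, rose 2.48-fold from 4.72 and 5.36 CPM to 13.2 and 11.8 CPM, Vegfa 2.3-fold, the phosphofructokinase Pfkl 1.83-fold and Ldha 1.47-fold, whereas Ldhb and Pdk1 fell 2.05-fold and 1.79-fold. Serum levels were 132 and 138 CPM for Slc16a3 and 111 and 109 CPM for Ldhb, and both genes were nearer to them in second 2i than in first 2i. Cholesterol synthesis genes were higher in 10 of 24 tested members and lower in 2, with Mvk, an early enzyme of the pathway, 1.42-fold higher. In the serine synthesis and integrated stress response list 11 of 24 were higher and 4 lower, among them Chac1, a glutathione-degrading enzyme (2.05-fold higher).

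**Figure D4:**
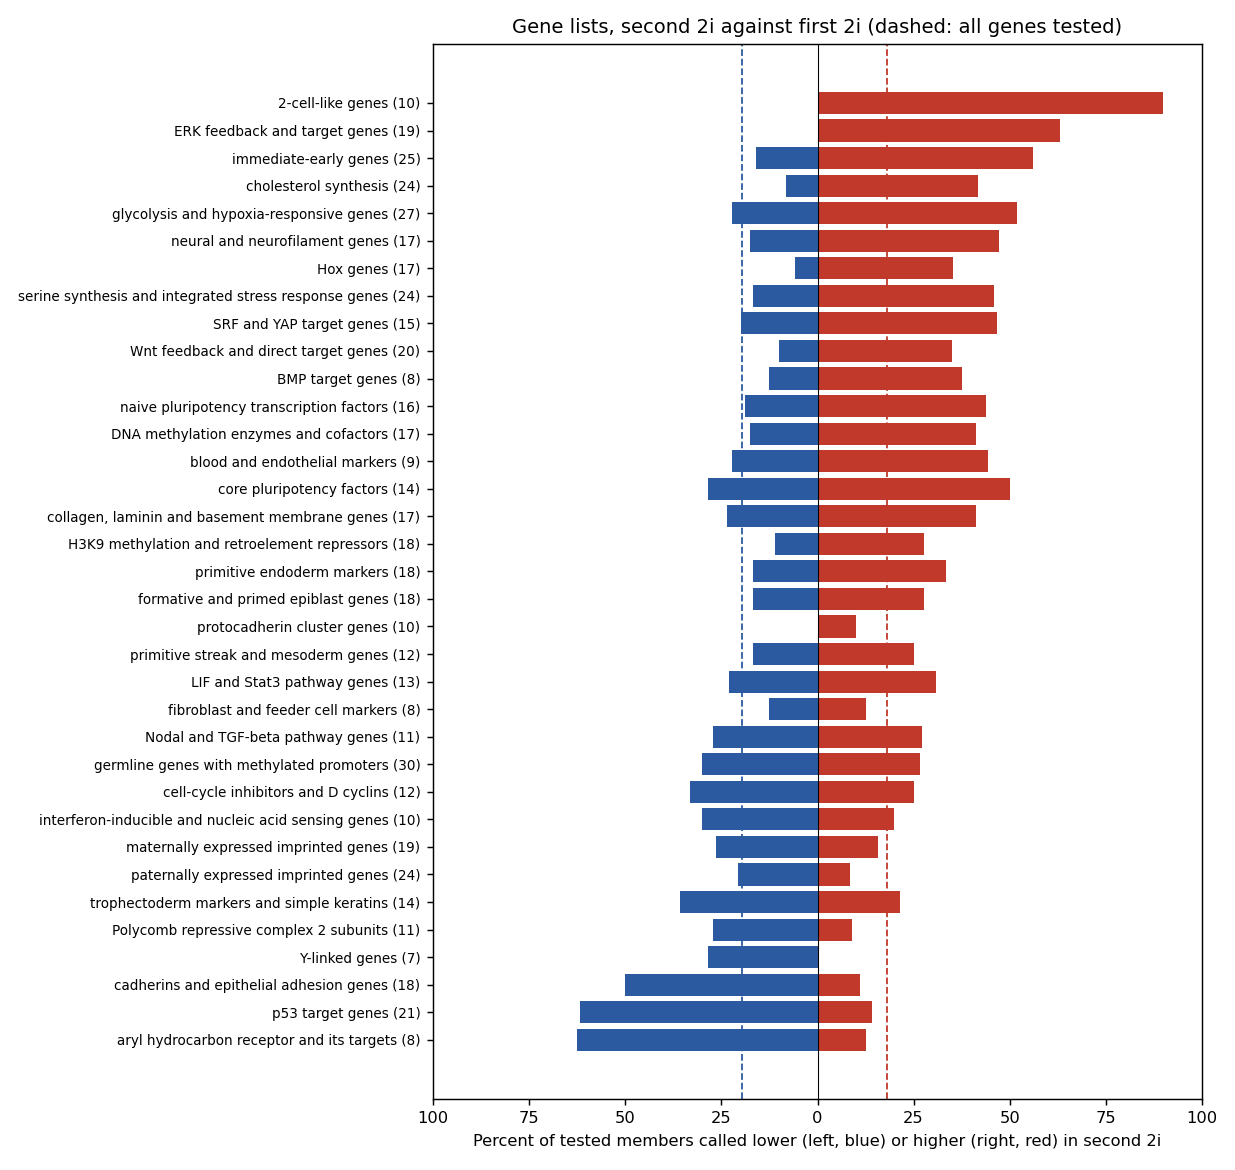
Percent of the tested members of each gene list that passed an edgeR adjusted p of 0.05 lower (blue, left) or higher (red, right) in second 2i, with the number tested in parentheses and dashed lines at the shares over all genes (19.6% and 18.1%). The 2-cell-like, ERK and immediate-early lists extend furthest to the right, and the p53 and aryl hydrocarbon receptor lists furthest to the left. The immediate-early list was drawn up after its leading genes had been seen. Tested 2-cell-like genes passed the filter on low counts through the groups in which they were high.

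Markers of other cells were low or moved in both directions, and their counts stand beside 18.1% of all genes higher and 19.6% lower. Primitive endoderm genes, which mark the other lineage of the inner cell mass, were higher in 6 of 18 tested members and lower in 3. Their summed level was 1345 and 1437 CPM in first 2i and 1596 and 1584 CPM in second 2i, mostly from the laminin gene Lamc1 and from Sparc, and Gata4 (2.48 and 1.95 CPM in first 2i and 1.91 and 2.58 CPM in second 2i) and Gata6 (0.468 and 0.682 CPM in first 2i and 0.218 and 0.527 CPM in second 2i) did not pass. Among the called members at least 2-fold higher were Col4a1 (3.1-fold), Hnf4a (2.43-fold, 1.17 and 0.828 CPM in first 2i and 2.29 and 2.58 CPM in second 2i) and Col4a2, and Sox7, an endoderm Sox factor, was 2.6-fold lower (1.45 and 1.07 CPM in first 2i and 0.654 and 0.316 CPM in second 2i). Col4a2 did not pass without replicate 2 of first 2i (adjusted p = 0.0896) and Sox7 without replicate 1 of first 2i (0.0705) or replicate 2 of second 2i (0.109). Trophectoderm genes and simple keratins were higher in 3 of 14 and lower in 5, with summed levels of 371 and 396 CPM in first 2i and 329.9 and 344 CPM in second 2i. Of 8 tested fibroblast and feeder markers 1 was higher (Pdgfrb, 1.91-fold) and 1 lower (Vim), with summed levels of 2479 and 2688 CPM in first 2i and 2625 and 2686 CPM in second 2i, mostly from Fn1 and Vim, which stem cells also express. In each group 3 of its 15 listed genes had no read. Of 9 tested blood and endothelial genes 4 were higher and 2 lower, with sums of 121 and 130.3 CPM in first 2i and 86.3 and 91.7 CPM in second 2i, mostly from Pecam1, which naive stem cells express and which fell 1.48-fold. The 4 higher ones were endothelial genes at low levels, Robo4 (0.0468 and 0.146 CPM in first 2i and 0.599 and 1.0 CPM in second 2i), Kdr (0.889 and 1.12 CPM in first 2i and 2.23 and 2.53 CPM in second 2i, 2.37-fold), Esam and Tie1. Esam did not pass in DESeq2 (adjusted p = 0.0571) or without replicate 2 of first or second 2i (edgeR, 0.221 and 0.280), Tie1 without replicate 2 of first 2i (0.0753), and Tek, the other lower gene, without replicate 1 of first or second 2i (0.0742 and 0.197). In each group 4 of its 15 listed genes had no read, and Cdh5, the endothelial cadherin, was at 0.234 and 0 CPM in first 2i and 0.218 and 0 CPM in second 2i. Blood and endothelial members with few reads, such as Robo4, passed the filter through the groups in which they were high. Their count therefore describes the 9 tested genes only. Kdm5d, a Y-linked demethylase, was at 2.43 and 2.92 CPM in first 2i and 0.599 and 1.05 CPM in second 2i and at 13.4 and 13.4 CPM in long 2i. Of 7 tested Y-linked genes 2 were lower, Kdm5d and Ddx3y, and Ddx3y (1.23-fold) did not pass without replicate 1 of first 2i (adjusted p = 0.0592) or replicate 2 of second 2i (0.0790). The part of these markers in the results above was not tested.

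A similar difference in history exists in serum, where serum return cells had been in 2i before and original serum cells had not. Here too earlier 2i culture and longer culture as such cannot be told apart. The pair of serum return and serum shares no library with second and first 2i. Between them 4407 genes passed (31%), 2347 higher (16.5%) and 2060 lower (14.5%) in serum return, and 459 (3.23%) with at least a 2-fold difference. Without replicate 1 of serum return 2428 genes passed, and without replicate 2 of serum 2839. With offsets that depend on GC content, 1936 were higher and 3298 lower. Of all tested genes, 2095 passed in both comparisons. They went the same way in 757, which is 14.1% of the calls in 2i and 17.2% of those in serum, and opposite ways in 1338, which is 25% and 30.4%. Among genes that passed with at least a 2-fold difference in both, 81 of 119 went the same way, 60 higher and 21 lower, and 38 went opposite ways. The log2 fold changes had a Pearson r of 0.05 across 14220 genes, which are not independent replicates. Without replicate 1 of serum return 490 genes went the same way and 760 opposite ways, and without replicate 2 of second 2i 874 went opposite ways.

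The base composition of genes moved with these counts. Over 5 equal groups of tested genes ordered by the GC content of their transcripts, the median log2 fold change in 2i went from -0.08 in the lowest to 0.12 in the highest group, and in serum from 0.13 to -0.11. With offsets that depend on GC content, 89.7% of the calls between second and first 2i were kept, and 98.5% of those of at least 2-fold. With the same offsets 1063 genes went the same way in both media and 1721 opposite ways.

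Genes that kept the same direction in both media and changed most were examined by a rule. Those higher in the cultures with earlier 2i included Cdx1, Tuba3a, Brdt, Ddr2, a collagen receptor, Dpp4, a cell-surface peptidase, and Chac1. Dpp4 rose 2.23-fold from 26.1 and 25.5 CPM to 59.1 and 55.8 CPM in 2i and 2.83-fold from 17.2 and 17.5 CPM to 50.1 and 47.8 CPM in serum (adjusted p = 1.61e-09 and 4.40e-10). Ddr2 rose 2.41-fold to 59.2 and 53.5 CPM in 2i and 2.73-fold from 1.05 and 1.09 CPM to 3.01 and 2.84 CPM in serum. For Cdx1 the serum pair was at 1.77 and 2.24 CPM and 4.99 and 6.37 CPM (2.81-fold). Those lower in both included Rhox9, Rhox6, Grin1, a glutamate receptor subunit, Sox21, a neural Sox factor, and Fabp3, a fatty acid carrier. The falls of Rhox9 and Rhox6 in serum rest on few reads. Rhox9 had 22 reads in serum and 3 in serum return, and Rhox6 had 30 and 6. Grin1 fell 3.17-fold from 42 and 44.6 CPM to 13.3 and 13.9 CPM in 2i and 2.34-fold from 11.8 and 13 CPM to 5.42 and 5.12 CPM in serum, and Sox21 2.12-fold and 2.16-fold. Grb10 rose 1.72-fold and 1.71-fold. In the lists, 2-cell-like genes were higher in 9 of 10 tested members in serum return too and lower in 1, against 16.5% and 14.5% of all genes. These members passed the filter on low counts through the groups in which they were high, and several are near-identical copies. The count therefore describes those 10 of 21 listed genes only. Zscan4d was at 0.0957 and 0.0521 CPM in serum and 2.76 and 1.86 CPM in serum return.

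Other lists gave different counts in the 2 media, and the difference between media was tested for single genes only. Against 16.5% of all genes higher and 14.5% lower in serum return, 9 of 21 p53 targets were higher and 2 lower, with Cdkn1a at 19.3 and 18.1 CPM in serum and 30.7 and 34.1 CPM in serum return. Germline genes were higher in 22 of 30 members and lower in 3 there, and cholesterol genes higher in none of 24 and lower in 13. Fos, Egr1 and Dnmt3l did not pass between serum return and serum (adjusted p = 0.0681, 0.824 and 0.243), and 6 of 25 immediate-early genes were higher and 2 lower. Tested directly, the difference between the 2 history comparisons passed for 5598 genes (39.4%), 2617 more positive in 2i and 2981 more positive in serum, or 3629 and 2616 with GC-dependent offsets. It passed for Egr1 (difference of log2 fold changes 7.99), Fos (5.88), Dnmt3l (2.98) and Cdkn1a (-1.54), and not for Ddr2 (-0.18, adjusted p = 0.59) or Sox21. Rhox9 did not pass either, but its few reads in the serum pair leave its difference uncertain.

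**Figure D5:**
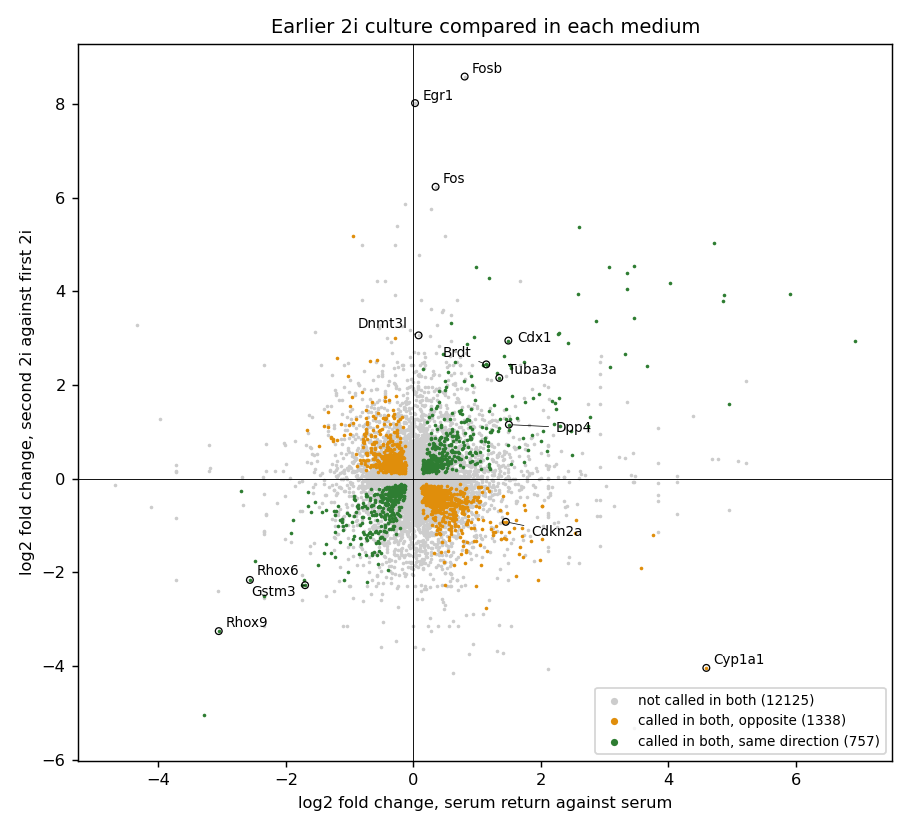
Log2 fold change of serum return against serum (x axis) and of second 2i against first 2i (y axis) for 14220 genes, with genes that passed in both in green where they went the same way (757) and orange where they did not (1338). Cdx1, Brdt, Tuba3a and Dpp4 lie in the upper right, Rhox9 and Rhox6 in the lower left, and Egr1, Fos and Fosb near 0 on the x axis; the outermost points rest on few reads and depend on the prior count.

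Genes were also divided by their response to the medium, measured in libraries that second and first 2i do not share. Between long 2i and serum 3699 genes passed with at least a 2-fold difference (26%). Of 1518 genes higher in long 2i, 233 were higher (15.3%) and 439 lower (28.9%) in second than in first 2i, with a median log2 fold change of -0.13. Of 2181 genes lower in long 2i, 455 were higher (20.9%) and 394 lower (18.1%), with a median of 0.05. Against 18.1% higher and 19.6% lower over all genes, lower calls were more frequent among genes that long 2i held up, and this division was made after other results had been seen. Cdh1, Cdkn2a, Nqo1 and Cyp1a1, named above, are among the genes higher in long 2i than in serum that were lower in second 2i, while Nefm and Axin2 were higher in both.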

How the data were processed

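Total RNA was sequenced in 10 libraries. The annotation and strand setting were not given in the sources used here. The authors deposited whole-number gene counts per library. Per the submitters' processing notes, HTSeq 0.5.4p5, TopHat2 2.0.4, CASAVA 1.8.2 and DESeq2 were among the tools, with build mm9. From these counts, 5 summary records per library were dropped, including reads that aligned to more than 1 place (33.4 to 36.5% of records). Genes were filtered (minimum count 10, total 15) in R 4.3.3 and scaled by TMM. They were tested with edgeR 4.0.16 (limma 3.58.1), quasi-likelihood, robust, over all 10 libraries with group as the only term and Benjamini-Hochberg adjustment over all genes tested. Each value marked SE is the absolute log2 fold change divided by the square root of the F statistic, and so was derived from the test. The code was tested on simulated data. DESeq2 1.42.0 and other settings were alternatives, with GC-dependent offsets (loess, span 0.5) added after seeing the data.

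The comparison, its 34 gene lists and the named genes were chosen with earlier results of these data known, and an immediate-early list was added after its leading genes had been seen. Named genes were the 12 higher and 12 lower genes of largest fold change with non-overlapping libraries and at least 5 CPM, up to 4 called members of a list, 23 genes always given, and the 8 higher and 8 lower genes that changed most in both media. Predicted genes, ribosomal protein genes and histone genes were left out. The text describes part of these and further list members chosen after their values were seen. Replicates of a group differed by more than sampling noise (chi-square per degree of freedom from 3.37 to 24.8, the highest in serum return), so none were merged. Upstream sequences came from RefSeq. Some genes are not reported here.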

Additional observations from a re-analysis of the deposited data

Results flagged for a closer look

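The comparison of cultures with and without earlier 2i was set against itself in the 2 media. The interaction contrast of edgeR was (second 2i minus first 2i) minus (serum return minus serum), and this difference passed for 5598 genes. Each value here is that difference of log2 fold changes, positive where the change was more positive in 2i.

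Among genes that rose in second 2i it was 7.99 for Egr1, 7.78 for Fosb, 5.88 for Fos, 2.98 for Dnmt3l, 2.92 for Tlx2 and 2.44 for Arhgef26. It was 2.21 for Slc43a3, 2.20 for Spry4, 2.07 for Gpr124, 1.74 for Hal, 1.57 for Nefm, 1.56 for Dnmt3b, 1.46 for Cdx1 and 1.30 for Brdt. Cdx1 and Brdt rose in both media and by more in 2i. Axin2, the feedback inhibitor of Wnt signalling, had a value of -1.23 and was at 2.34 and 3.02 CPM in serum and 7.86 and 7.68 CPM in serum return.

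Among genes that fell in second 2i the difference was -8.63 for Cyp1a1, -4.45 for Calb2, -2.71 for Crtac1, -2.39 for Eps8l2, -2.37 for Cdkn2a and -2.07 for Myb. It was -2.03 for Dppa3, -1.77 for Mal, -1.54 for Cdkn1a and -1.21 for Plagl1, an imprinted zinc finger gene at 18.4 and 18.2 CPM in serum and 39 and 35.9 CPM in serum return. The fall of Plagl1 in second 2i was small and did not pass in DESeq2 (log2 fold change -0.17, adjusted p = 0.0581). Its log2 fold change was -0.083 without replicate 2 of second 2i. Cdkn1a and Cdkn2a were higher in serum return than in serum and lower in second than in first 2i. H19 had a difference of 3.49 with 1 read in first 2i, Fosb had few reads outside second 2i and Cyp1a1 none in serum, so these 3 fitted values depend on the prior count.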

How the results depend on the processing

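Genes with few reads, the 2-cell-like genes above all, are limited by depth, and multicopy genes by reads that were not counted. Of the calls between second and first 2i, 99.2% were kept with RLE size factors, 96.8% with no filter on low counts, 98.2% with only the groups compared, 89.7% with GC-dependent offsets, 77.7% in DESeq2, and 64.5 to 74.9% when 1 library was left out. Leaving out 1 library at a time gave 3566 to 4221 genes between second and first 2i, of which 1671 to 2042 were higher. Between serum return and serum it gave 2428 to 3357 genes, 1312 to 1789 higher and 1116 to 1613 lower, and GC-dependent offsets gave 3298 lower. Genes that went the same way in both media numbered 490 to 606 with 1 library left out and 502 in DESeq2, and genes that went opposite ways 760 to 1144. Here a group's single remaining library was taken to vary as the other groups do.

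Libraries of the same title series, which gave the replicate numbers, deviated together weakly, with correlations from 0.0994 to 0.168 between groups. They were not taken as paired. With the title series as a replicate block, 6933 genes passed between second and first 2i and 99.8% of the calls were kept. The block gave 1246 genes going the same way in both media and 2285 going opposite ways, and 2 ERK genes lower. Of single genes, Klf2 had log2 fold changes of -0.029 with GC-dependent offsets and -0.048 to 0.40 with 1 library left out, negative without replicate 1 of first 2i and without replicate 2 of second 2i, against 0.16, and passed with the block (edgeR adjusted p = 0.000104). Tfcp2l1 had 0.012 with GC-dependent offsets against -0.04. Further genes whose difference did not pass also changed sign. With GC-dependent offsets Eif1a had 0.13, Ezh2 0.045 and Gata4 -0.088. With 1 library left out the log2 fold changes ran from -4.37 to 4.21 for Cdh5, which has few reads, from -0.061 to 0.013 for Dnmt1, -0.097 to 0.076 for Eif1a, -0.090 to 0.0094 for Ezh2, -0.22 to 0.22 for Gata4 and -0.074 to 0.042 for Tcf7. No other gene tested under the alternatives by name changed direction. With the block, Klf10, Spred1 and Spred2 passed as well. Among the genes tested by name, calls were lost for 8 in DESeq2, 3 with GC-dependent offsets and 8 to 19 with 1 library left out, a number that does not cover list members given only as counts. The cause of these shifts was not tested.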

Other observations

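Further gene lists had members that moved in both directions, and 37.7% of all genes tested were called. In the basement membrane list 7 of 17 tested genes were higher in second 2i and 4 lower. Hspg2 (perlecan) was at 93.5 and 101 CPM in first 2i and 144 and 161 CPM in second 2i, the laminin chain gene Lama5 at 165 and 189.8 CPM in first 2i and 269 and 263 CPM in second 2i and Col4a1, a collagen of basement membranes, at 0.842 and 0.828 CPM in first 2i and 2.89 and 2.32 CPM in second 2i, all 3 higher, whereas Col4a5 fell 3.12-fold (3.46 and 3.6 CPM in first 2i and 1.47 and 0.791 CPM in second 2i) and Lama1 1.31-fold. Polycomb repressive complex 2 genes were called in 4 of 11, a share near that of all genes, with the catalytic subunit Ezh1 1.71-fold lower (54 and 54.3 CPM in first 2i and 30.6 and 32.9 CPM in second 2i) and the accessory gene Phf19 1.86-fold lower. Ezh2, the main catalytic subunit in dividing cells, was at 279.9 and 261 CPM in first 2i and 267 and 258 CPM in second 2i and did not pass. In the list of LIF and Stat3 pathway genes 4 of 13 were higher and 3 lower, and Stat3 itself was at 141 and 146 CPM in first 2i and 145 and 148 CPM in second 2i and did not pass. Interferon-inducible genes were higher in 2 of 10 tested members and lower in 3, among them Aim2, a sensor of cytosolic DNA, at 172 and 162 CPM in first 2i and 108 and 103 CPM in second 2i. H3K9 methylation and retroelement repressor genes were higher in 5 of 18 and lower in 2, also near the share of all genes. The lower ones were Suv39h1 (1.26-fold) and Suv39h2, which methylate H3K9 in heterochromatin, and Suv39h2 did not pass in DESeq2 (adjusted p = 0.125) or without any single library (edgeR, 0.119 to 0.151). Of 10 tested protocadherin cluster genes 1, Pcdhgc3, was higher (1.42-fold), and it did not pass without replicate 1 of first 2i (edgeR adjusted p = 0.0753) or replicate 1 of second 2i (0.0626).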
